A study of Mus musculus with 2 samples.

Results

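Neutrophils were examined by single-cell RNA sequencing in the ischemic adductor muscle of Apoa1bp-/- and WT mice, taken on day 7 once the femoral artery, the main artery of the hind limb, had been tied off. A barcode was taken as a neutrophil if it had at least 10 unique molecular identifiers (UMIs) of S100a8 and S100a9 together, at least 2 of Retnlg, Cxcr2, Csf3r, Mmp9 and Ly6g, at most 4 UMIs of C1qa, C1qb and C1qc together, and none of Pdgfra, Cdh5 or Cd3e. This rule found 204 of the 23001 barcodes kept, of which 43 came from the WT and 161 from the Apoa1bp-/- library. Both groups underwent the ligation, 4 mice were operated per genotype, and the WT mice were littermates. The knockout lacks Apoa1bp, also named Naxe, in the whole animal as far as the labels say, and the age, the sex and the strain of the mice, and whether the muscles of the 4 mice were pooled, were not stated in the labels. Each genotype has 1 library, so no difference between genotypes has a replicate check, no test was made, and every interval below is an exact 95% interval that covers counting error only. All ratios are knockout over WT.

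Neutrophils are short-lived granulocytes that are made in bone marrow, circulate for hours and enter injured tissue before monocytes do. They carry preformed proteases and antimicrobial proteins in granules that are filled in a fixed order during maturation, so that transcripts of granule proteins mark young cells and are low in circulating ones. In tissue they release chemokines and interleukin-1 and can respond to interferons. S100a8 and S100a9 encode the subunits of calprotectin, a calcium-binding protein that fills the neutrophil cytosol. Cxcr2 is the receptor for neutrophil-attracting chemokines, Csf3r is the receptor for granulocyte colony-stimulating factor, Mmp9 is a gelatinase of the granules, Ly6g is a surface marker of mouse neutrophils and Retnlg encodes a resistin-like secreted protein.

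The promoters of S100a8 and S100a9, which mark these cells, of Ngp, a granule gene found in 1 of 43 WT and 5 of 161 knockout neutrophils, and of 3 interferon-induced genes that differ between the libraries are shown first, since the results turn on these gene groups. Each is the RefSeq window of GRCm38.p6 from 250 bases before to 50 bases after a gene's start, read on the gene's strand, and lies at chr3:90668821-90669120 (plus) for S100a8, chr3:90695672-90695971 (minus) for S100a9, chr9:110419558-110419857 (plus) for Ngp, chr4:156200769-156201068 (minus) for Isg15, chr19:34640639-34640938 (plus) for Ifit1 and chr11:83174936-83175235 (plus) for Slfn4. In S100a8, S100a9 and Ngp, capitals mark TTGCNNAA on either strand, a motif of the C/EBP factors that act in granulocyte development. In Isg15, Ifit1 and Slfn4, capitals mark GAAA, any 2 bases and GAAA on either strand, the core of the interferon-stimulated response element.
S100a8: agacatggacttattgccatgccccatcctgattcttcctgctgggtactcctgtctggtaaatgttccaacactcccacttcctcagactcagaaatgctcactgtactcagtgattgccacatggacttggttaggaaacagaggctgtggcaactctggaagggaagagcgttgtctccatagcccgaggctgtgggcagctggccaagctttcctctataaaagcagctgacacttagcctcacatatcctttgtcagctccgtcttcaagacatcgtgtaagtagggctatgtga
S100a9: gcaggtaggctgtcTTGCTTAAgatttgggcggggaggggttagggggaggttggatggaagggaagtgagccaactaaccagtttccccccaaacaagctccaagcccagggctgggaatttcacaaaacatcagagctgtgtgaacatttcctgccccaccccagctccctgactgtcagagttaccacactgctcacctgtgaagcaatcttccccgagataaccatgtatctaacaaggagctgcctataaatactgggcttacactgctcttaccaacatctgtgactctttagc
Ngp: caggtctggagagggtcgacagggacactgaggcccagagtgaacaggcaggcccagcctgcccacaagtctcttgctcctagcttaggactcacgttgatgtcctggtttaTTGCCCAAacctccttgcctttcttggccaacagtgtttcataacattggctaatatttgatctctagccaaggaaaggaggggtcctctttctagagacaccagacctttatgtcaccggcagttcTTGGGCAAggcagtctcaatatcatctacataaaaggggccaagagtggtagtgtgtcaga
Isg15: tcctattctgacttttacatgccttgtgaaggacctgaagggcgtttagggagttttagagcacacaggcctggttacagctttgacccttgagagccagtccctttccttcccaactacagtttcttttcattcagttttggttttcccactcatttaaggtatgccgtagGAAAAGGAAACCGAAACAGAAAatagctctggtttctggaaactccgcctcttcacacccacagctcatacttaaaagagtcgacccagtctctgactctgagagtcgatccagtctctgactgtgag
Ifit1: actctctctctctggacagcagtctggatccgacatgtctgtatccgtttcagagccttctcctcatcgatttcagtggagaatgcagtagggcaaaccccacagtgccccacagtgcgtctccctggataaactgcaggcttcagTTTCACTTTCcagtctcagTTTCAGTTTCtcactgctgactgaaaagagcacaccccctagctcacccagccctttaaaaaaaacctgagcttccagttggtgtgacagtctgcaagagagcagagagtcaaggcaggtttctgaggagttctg
Slfn4: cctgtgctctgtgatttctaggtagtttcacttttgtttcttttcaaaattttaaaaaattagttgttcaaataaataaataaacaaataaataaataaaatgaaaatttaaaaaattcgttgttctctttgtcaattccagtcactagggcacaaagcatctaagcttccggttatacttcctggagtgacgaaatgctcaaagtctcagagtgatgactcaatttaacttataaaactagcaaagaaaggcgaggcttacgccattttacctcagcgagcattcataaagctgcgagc

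The C/EBP motif occurred once in the S100a9 window, starting 236 bases before the start, 2 times in the Ngp window and not in the S100a8 window. It was in 7 of the 20 windows matched among the 5 marker genes and the 20 genes most particular to neutrophils listed below, and in 12.2% of 27025 genes with a window. The interferon motif occurred 3 times, with overlaps, in the Isg15 window, the first match starting 78 bases before the start, and 2 times in the Ifit1 window. It was in 7 of the 14 matched genes of the interferon list that were measured, in 3 of the 8 matched among those higher in the knockout library, and in 3.99% of all genes with a window, and not in the Slfn4 window. These are matches of letters in short windows and say nothing of binding.

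Genes that the rule did not use describe the neutrophils further. The 20 genes with the largest ratio of neutrophil level, as the mean of both libraries in CPM (the UMIs of a gene in all neutrophils of a library, scaled to the same total), to the highest of 7 other marker-defined classes were Cstdc4, Asprv1, Mirt2, Stfa2l1, Stfa1, Il36g, Acod1, Lcn2, Hcar2, Wfdc21, Camp, Hdc, H2-Q10, Rdh12, Ngp, Il1r2, Slc7a11, Trem1, Il1b and Arg2, with ratios from 510 for Cstdc4 to 15.6 for Arg2. Of these, Camp (0 WT and 1272 knockout CPM), Ngp (10.9 and 1066 CPM) and Stfa1 (21.8 and 222 CPM) reached a mean of 100 CPM only through the knockout library, and the counts of Camp and Ngp lay almost wholly in 3 knockout cells. Hdc, which makes histamine, was 37.5 times, Trem1, an amplifying receptor of myeloid cells, 17.5 times and Il1r2, a decoy receptor of interleukin-1, 18.7 times the level of the next class. The 7 eosinophil markers held 1 WT and 5 knockout UMIs and the 6 mast cell and basophil markers held 0 in both, among them Cpa3. T cell markers held 2 and 7 UMIs and NK cell markers 0 and 12. Monocyte markers held 106 and 325 UMIs, and macrophage markers 291 and 1121, of which 199 and 803 were Apoe, found in 39 of 43 WT and 147 of 161 knockout neutrophils. Mrc1, a macrophage receptor, had 1 and 4 UMIs. These values describe the cells and do not check the label, since the members were chosen by their counts and the 20 genes by their ratios.

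Depth and UMIs of other cells' genes were uneven among the neutrophils, and their part in the gene results that follow was not tested. The WT neutrophils held 91936 UMIs and the knockout neutrophils 490709, with medians of 1266 and 1749 UMIs per barcode against 4461 and 6825 over all kept barcodes. The 4 WT and 24 knockout neutrophils of 4000 UMIs or more held 38.2% and 52.8% of these UMIs, and 1 WT neutrophil with 20270 UMIs held 22.0% of its group. In those deep barcodes S100a8 and S100a9 made up 21118 and 39645 CPM, against 85880 and 122529 CPM in the shallower ones, and the 6 satellite cell and myoblast markers were at 769 and 722 CPM, against 106 and 108 CPM. The 7 fibroblast markers were at 3591 and 4897 CPM in the deep barcodes and at 1073 and 501 CPM in the others. Macrophage markers were lower in the deep barcodes, at 2508 and 1823 CPM, against 3571 and 2800 CPM. Muscle fibre markers were at 228 and 7654 CPM, against 4538 and 3348 CPM. Red cell markers were at 28.5 and 19.3 CPM, against 22376 and 47.5 CPM. Since depth was uneven, results are also given for the 39 WT and 137 knockout neutrophils under 4000 UMIs, a limit chosen after the data were seen. These shallower barcodes are not free of other cells' UMIs. Of 43 barcode sequences found in both libraries, 0 WT and 1 knockout neutrophil had one.

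**Figure D1:**
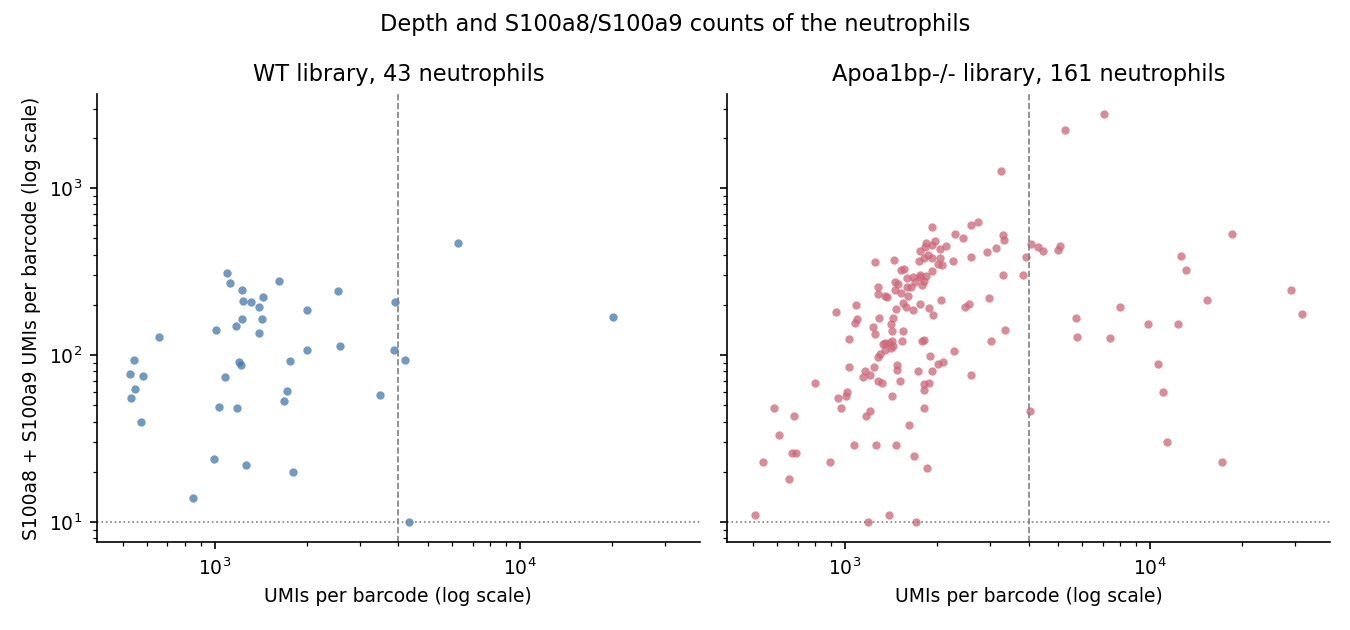
UMIs per barcode (x axis, log scale) against S100a8 plus S100a9 UMIs (y axis, log scale) for each neutrophil, WT on the left and Apoa1bp-/- on the right. The dotted line is the rule's minimum of 10 UMIs and the dashed line marks 4000 UMIs, beyond which 4 WT and 24 knockout barcodes lie.

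The counts that chose the members had the following shape. WT neutrophils had 10, 107 and 467 S100a8 plus S100a9 UMIs (lowest, median and highest), and knockout neutrophils 10, 168 and 2787. Near the minimum, 2 WT and 4 knockout members had 10 to 14 UMIs, and 3 and 5 barcodes that met the rest of the rule had 5 to 9. Another 16 and 19 barcodes had only 1 of the 5 further marker genes, and 10 and 21 were left out by C1q alone, with medians of 52 and 68 C1q UMIs. Cxcr2 was detected in 32 of 43 WT and 120 of 161 knockout neutrophils, Csf3r in 36 and 144, Mmp9 in 28 and 117, Retnlg in 30 and 127, and Ly6g in 0 and 15. S100 UMIs were also found outside neutrophils: 1.48% of WT and 7.78% of knockout fibroblasts (medians 5086 and 9513 UMIs) had at least 1 S100a8 or S100a9 UMI, but 0.152% and 0.814% had the 10 or more that the rule asks for.

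Neutrophils took a larger share of the knockout library. They were 43 of 13837 kept WT barcodes (0.311%, 0.225 to 0.418%) and 161 of 9164 kept knockout barcodes (1.76%, 1.498 to 2.047%), a ratio of 5.65 (4.02 to 8.11). Over 13 other forms of the rule, the filter or the denominator the ratio was between 4.61 and 6.99. It was 5.21 when fibroblasts, 19.0% of the WT and 12.1% of the knockout library, were left out of the denominator, 5.39 among barcodes with a UMI of the leukocyte gene Ptprc, and 6.63 after each barcode was thinned to 1000 UMIs. Monocytes, chosen by Ly6c2 and 2 of 5 further markers, stood at 0.340% and 1.74%, a ratio of 5.11 (3.67 to 7.23), and macrophages at 37.5% and 35.0%, a ratio of 0.932 (0.892 to 0.974). These are shares of a whole from 1 library each, so the genotype and the preparation of the library cannot be told apart.

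**Figure D2:**
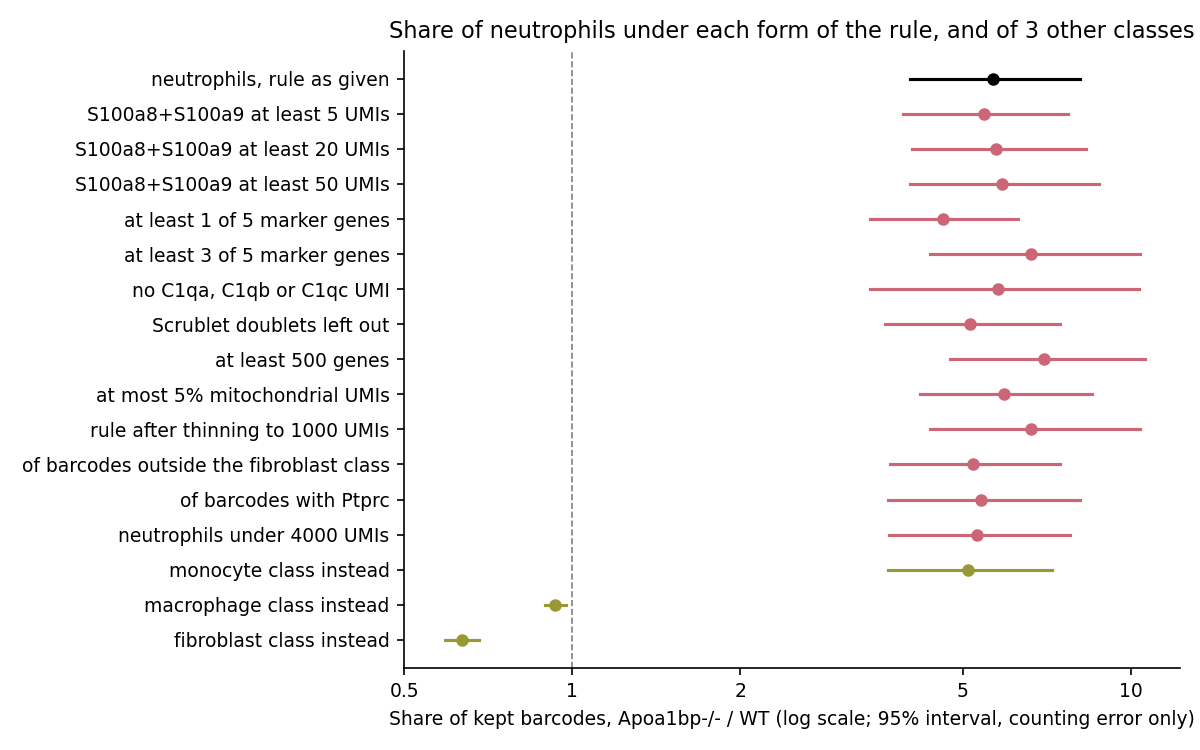
Ratio of the share of barcodes, Apoa1bp-/- over WT (x axis, log scale), with exact 95% intervals for counting error. The upper 14 rows are neutrophils by the rule and its alternatives, all between 4.61 and 6.99, and the lower rows are the monocyte class at 5.11, the macrophage class at 0.932 and the fibroblast class at 0.635.

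The targeted gene was looked at in both libraries. Naxe had 4061 UMIs in kept WT barcodes (50.3 CPM, 48.7 to 51.8) and 0 in kept knockout barcodes. In neutrophils it had 0 UMIs in both libraries, which allows levels of up to 32.6 CPM (WT) and 6.11 CPM (knockout), or 3 UMIs of the total, so its loss was not detectable in these cells at this depth. Naxd, which encodes the dehydratase of the same NAD(P)HX repair, had 3 and 21 UMIs (32.6 and 42.8 CPM).

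Of 1414 genes with a mean of at least 100 CPM in neutrophils, 126 (8.91%) were at least 1.5-fold higher in the knockout library with an interval that left out 1, and 144 (10.2%) were at least 1.5-fold lower. The median log2 ratio over all 1414 was -0.06. Taken as the mean over barcodes in place of the sum, 64 were higher and 114 lower. Without the barcodes that held at least 3 fibroblast collagen or at least 3 muscle fibre UMIs, 76 (5.45%) of 1395 genes were higher and 145 (10.4%) lower. Under 4000 UMIs, 83 (6.01%) of 1380 genes were higher and 154 (11.2%) lower, and 44 of the 126 higher genes had a ratio on the other side of 1, as did 1 of the 144 lower genes. Of the 126 higher genes, 46 were at 5 times or more of the neutrophil level in another cell class of the same library and are not named one by one. In all 19 settings that could change a call, 11 genes were higher (Tspo, Sub1, Cstdc4, Retnlg, Ccrl2, Gm10076, Ifitm1, Anxa1, Isg15, Hmgn2 and Stfa1) and 6 were lower (Hbb-bs, Tnf, Cotl1, Timp2, Irf2bp2 and Rps25). Retnlg is one of the genes that chose the cells. All settings use the same 2 libraries, and some of these genes differed in other classes too. In macrophages Gm10076 was at 892 and 2204 CPM, Rps25 at 1326 and 812 CPM and Irf2bp2 at 340 and 229 CPM. Ifitm1 was at 8.49 and 9.31 CPM there, and at 151 and 91.5 CPM in monocytes.

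**Figure D3:**
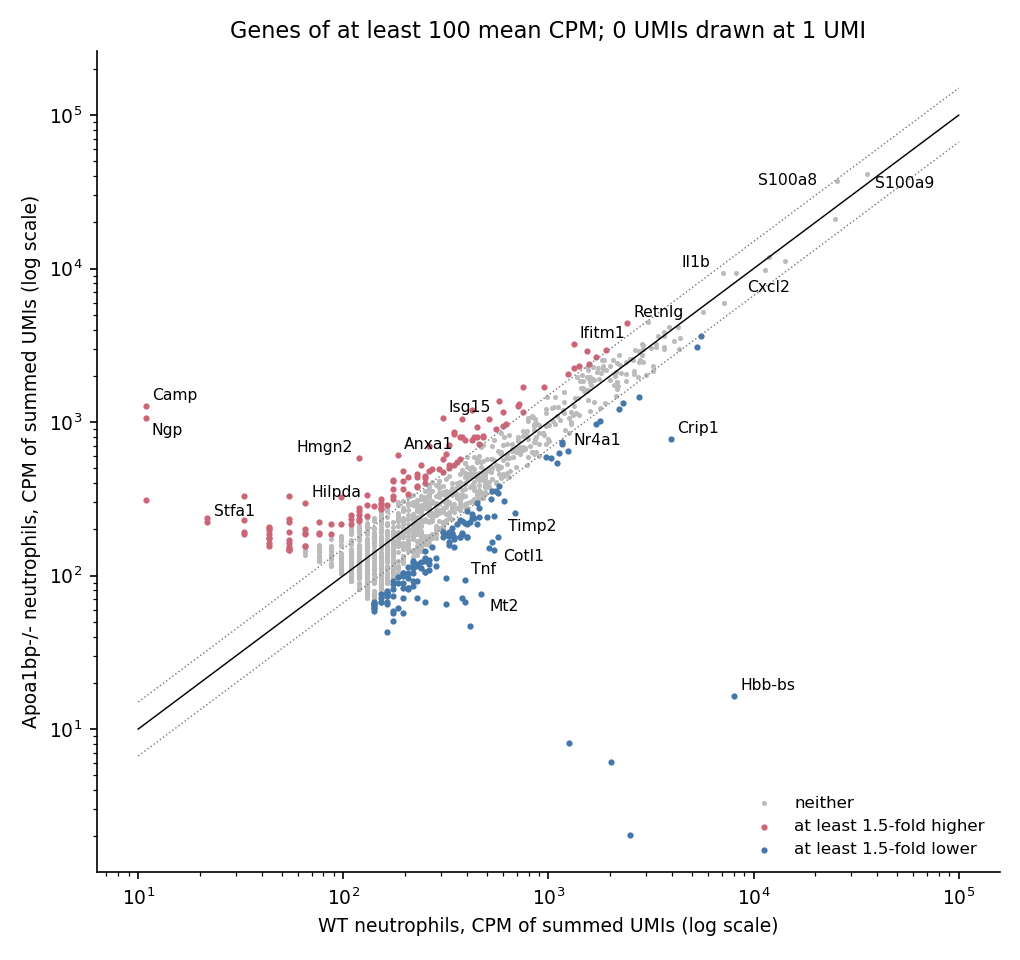
CPM of summed UMIs in WT (x axis) and Apoa1bp-/- (y axis) neutrophils, both on log scales, 1 point per gene with a mean of at least 100 CPM; dotted lines mark 1.5-fold. Camp, at 0 WT UMIs, is drawn at 1 UMI, and 126 genes (red) lie above and 144 (blue) below.

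The higher genes with the interval bound farthest from 1 were Camp, Ngp, Stfa1, Hmgn2, Isg15, Hilpda, Anxa1, Ifitm1, H2az1, Slfn4, Rtp4 and Srsf7. Stfa1, a stefin that inhibits cysteine proteases, had 2 WT and 109 knockout UMIs, 21.8 and 222 CPM, a ratio of 10.2 (2.76 to 85.4). Its knockout UMIs came from 22 of 161 cells, and the neighbouring stefin genes Cstdc4 (196 and 414 CPM, 2.11, 1.3035 to 3.64) and Stfa2l1 (152 and 277 CPM, 1.82, 1.05 to 3.42) were higher too. These genes are near-identical copies among which reads could be split or lost. Anxa1, an annexin that limits neutrophil adhesion, was at 185 and 611 CPM (3.31, 2.03 to 5.75) and was found in 9 of 43 WT and 98 of 161 knockout neutrophils. Hmgn2, a nucleosome-binding protein, was at 120 and 585 CPM (4.89, 2.69 to 9.90). Hilpda, a hypoxia-inducible lipid droplet protein, was at 65.3 and 298 CPM (4.56, 2.04 to 12.6), from 4 and 24 cells. H2az1, a histone variant, and Srsf7, a splicing factor, had ratios of 2.75 and 4.08, but 1.35 (0.811 to 2.37) and 2.70 (0.846 to 13.8) under 4000 UMIs. Some of these genes were higher in other classes too. Anxa1 had ratios of 1.86 in monocytes and 1.33 in macrophages, but 0.789 in myoblasts. Hilpda had 4.63 in monocytes and 1.93 in macrophages. Hmgn2 was at 156 and 195 CPM in monocytes and at 135 and 235 CPM in macrophages. It was at 126 and 376 CPM in fibroblasts, 156 and 338 CPM in endothelial cells, 154 and 447 CPM in T cells and 366 and 937 CPM in myoblasts.

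The lower genes by the same ranking were Crip1, Mt2, Gpx3, Tnf, Ahnak, Timp2, Cotl1, Tgm2, Soat1, Tbl1xr1, Tm6sf1 and Nr4a1. Tnf, the inflammatory cytokine, was at 392 and 93.7 CPM (0.239, 0.151 to 0.381), found in 10 of 43 and 22 of 161 cells, and at 0.259 (0.159 to 0.424) under 4000 UMIs. In the monocyte and macrophage classes of the same libraries its ratios were 2.03 (0.809 to 6.56) and 1.12 (0.989 to 1.26). In endothelial cells Tnf was at 0.256 (0.0865 to 0.690), from 13 and 7 UMIs, and in T cells at 2.19 (1.25 to 4.03). In fibroblasts and myoblasts it was at 1.23 (0.577 to 2.63) and 4.07 (1.23 to 21.1). Thinned to 500 UMIs, 12.2% of WT (4.24 to 25.8%) and 5.41% of knockout neutrophils (2.46 to 10.1%) were expected to show Tnf. Cotl1, which binds actin and 5-lipoxygenase, was at 533 and 165 CPM (0.310, 0.215 to 0.451), in 25 and 58 cells. Timp2, a metalloproteinase inhibitor, was at 566 and 177 CPM (0.313, 0.220 to 0.451), and Tgm2, a transglutaminase, at 250 and 67.3 CPM (0.269, 0.153 to 0.479). Nr4a1, an orphan nuclear receptor induced by stimulation, was at 1240 and 648 CPM (0.523, 0.421 to 0.653), in 34 and 106 cells. Soat1, which esterifies cholesterol, was at 228 and 71.3 CPM (0.312), but its interval held 1 under 4000 UMIs (0.442, 0.193 to 1.07). Mt2 and Gpx3 rested on few cells, since 39 of 43 and 20 of 36 WT UMIs came from 1 cell each. Crip1, a LIM domain protein, had 226 of 364 WT UMIs in 1 cell. It stood at 0.196 (0.169 to 0.227), and at 0.368 (0.227 to 0.605) under 4000 UMIs. Some of these genes were lower in other classes too. Crip1 had ratios of 0.526 in monocytes, 0.559 in macrophages, 0.587 in fibroblasts and 0.655 in endothelial cells. In myoblasts and T cells it was at 0.397 and 0.774. Timp2 was at 267 and 121 CPM in monocytes and at 1070 and 742 CPM in macrophages. Ahnak was at 980 and 560 CPM and at 692 and 335 CPM there. In monocytes Nr4a1 was higher, at 1.52 (1.11 to 2.13), and Cotl1 was at 428 and 447 CPM.

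Interferon-induced genes were higher together in the knockout neutrophils. Of the 30 genes of the list, 15 had a mean of at least 100 CPM over the 2 libraries. Of these, 9 were at least 1.5-fold higher and 0 lower, against 8.91% and 10.2% of all genes. The median log2 ratio was 0.90 against -0.06. Under 4000 UMIs 10 of 19 were higher and 0 lower, against 6.01% and 11.2% of all genes. The median there was 1.07 against -0.12. Isg15, a ubiquitin-like protein, was at 305 and 1058 CPM (3.47, 2.37 to 5.28). Ifitm1, a membrane protein that blocks virus entry, was at 1327 and 3206 CPM (2.42, 2.01 to 2.93) and had the most UMIs of the list. Slfn4, a schlafen of myeloid cells, was at 348 and 866 CPM (2.49, 1.74 to 3.68), and Rtp4 at 97.9 and 326 CPM (3.33, 1.71 to 7.42). A gene could reach the mean through 1 library, as Rtp4 did through the knockout. Ifit1, a sensor of viral RNA, stood at 120 and 275 CPM (2.30, 1.24 to 4.72). Oasl2, Ifitm6, Slfn5 and Slfn1 had ratios between 1.77 and 2.08, and Ifitm6 did not pass under 4000 UMIs (2.13, 0.91 to 6.06). The 6 measured genes that did not pass were Ifitm3 (1.14), Oas3 (1.27), Bst2 (1.28), Rsad2 (1.42), Irf7 (1.46) and Isg20 (0.771). Ifit3, under the 100 CPM mean and named after its values were seen, had 1 WT and 88 knockout UMIs, from 1 and 41 cells.

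**Figure D4:**
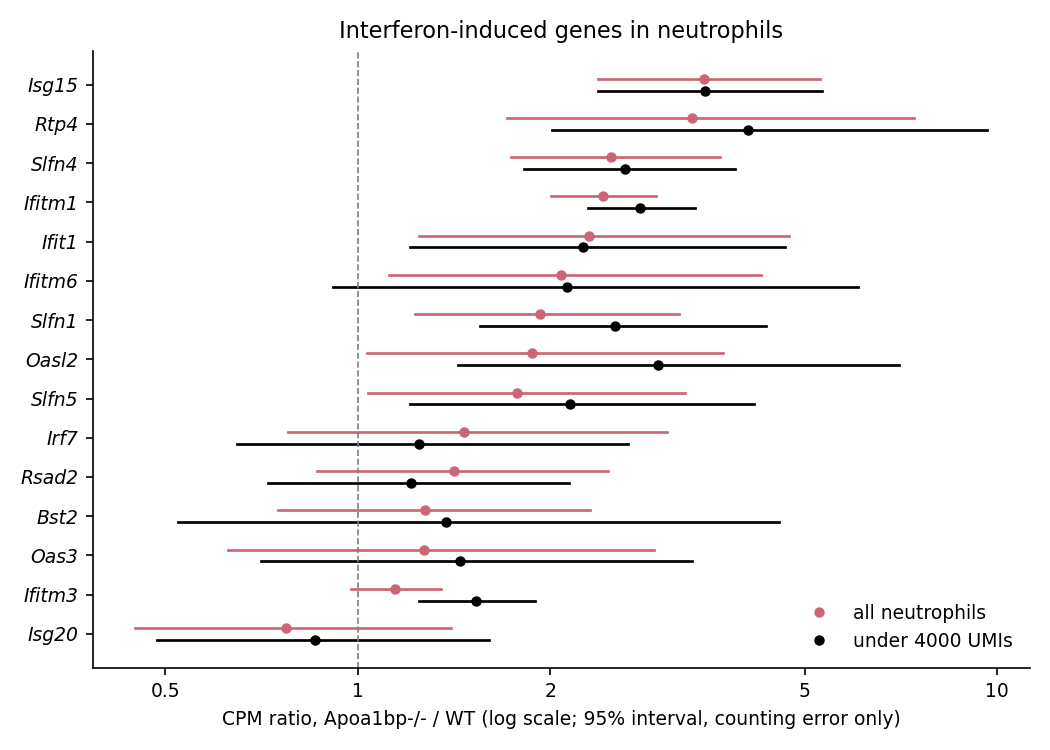
CPM ratio, Apoa1bp-/- over WT (x axis, log scale), of the 15 measured interferon-induced genes, with exact 95% intervals for counting error, over all neutrophils (red) and those under 4000 UMIs (black). Ratios over all cells run from 0.771 for Isg20 to 3.47 for Isg15, with 9 of 15 at 1.5 or more and an interval above 1.

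The share of cells with a UMI was compared gene by gene at 500 UMIs per cell. Of 15 genes of the list, 13 had a higher share in the knockout and 2 a lower one. The intervals of the 2 libraries were apart for 1 gene alone, Isg15. These were not the 15 measured genes: Ifitm6 and Bst2 were left out. Ifit3 and Ifit3b, both under the 100 CPM mean, were included and are among the higher ones. Before thinning they were found in 1 WT cell each and in 41 and 26 knockout cells. Per neutrophil, the whole list took 0.111, 0.549 and 2.25% of UMIs in WT cells (lowest, median and highest) and 0.0595, 1.54 and 7.95% in knockout cells, so the ranges overlapped. Thinned to 500 UMIs, 11.9% of WT (4.06 to 25.4%) and 37.2% of knockout neutrophils (29.8 to 45.2%) were expected to show Isg15, and 21.6% (10.6 to 36.8%) and 40.5% (32.8 to 48.5%) to show Slfn4. Without thinning the shares were 20.9% and 58.4% for Isg15, and 37.2% and 70.8% for Slfn4. At 500 UMIs Isg20 (15.1% and 10.4%) and Irf7 (11.6% and 10.4%) had the lower knockout shares, and Oas3 (7.25% and 9.33%) and Ifitm3 (56.1% and 64.9%) lay close together. Thinned fibroblasts had Isg15 in 1.92% and 8.17%, macrophages in 2.86% and 9.09%, and monocytes in 2.17% and 24.6%. In 1 thinning of the knockout neutrophils, the 58 cells with an Isg15 UMI had Slfn4 in 62.1%, Oasl2 in 29.3% and Rtp4 in 31.0%, against 29.1%, 8.74% and 13.6% of the 103 without, at median depths of 1729 and 1758 UMIs. Ifitm1 was in 69.0% and 67.0%.

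The list's median was above 0 in 6 other classes as well. In monocytes it was 1.23 on the log2 scale, with 11 of 13 measured genes higher and 1 lower, where 12.3% of all measured genes were higher and 9.87% lower. In macrophages it was 0.85, with 4 of 5 higher against 3.31% of all genes, and in endothelial cells 0.80, with 6 of 8 against 5.16%. T cells stood at 0.88, with 4 of 4 higher against 9.64%, fibroblasts at 0.70, with 2 of 4 against 9.31%, and myoblasts at 0.45, with 1 of 2 against 7.25%. Isg15 had ratios of 12.3 (6.98 to 23.9) in monocytes, 2.999 (2.85 to 3.15) in macrophages and 4.58 (4.26 to 4.93) in fibroblasts. Ifitm1 was lower in knockout monocytes, at 0.604 (0.403 to 0.924), and endothelial cells, at 0.214 (0.149 to 0.302), and at 1.10 (0.918 to 1.31) in macrophages. No test of a difference between classes was made, and all classes share the same 2 libraries. Without any C1q UMI, a setting that leaves 18 WT and 69 knockout neutrophils, the list's median in neutrophils was 0.21 and the ratio of Slfn4 was 1.16.

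Among genes of the neutrophil granules, the most extreme ratios came from 3 knockout cells. The azurophil list, the proteins of the first granules formed, had no gene with a mean of 100 CPM, with 13 WT and 67 knockout UMIs in all. Of 18 specific and gelatinase granule genes 11 were measured, 6 were higher and 1 lower, against 8.91% and 10.2% of all genes, with a median log2 ratio of 0.85. Camp, the cathelicidin precursor, had 0 WT and 624 knockout UMIs. Its knockout level was 39.0 times the WT limit of 3 UMIs, and the exact lower bound of the ratio was 31.6. Ngp, a neutrophil granule protein, had 1 and 523 UMIs (98.0, 17.5 to 3878). All 624 Camp UMIs and 521 of 523 Ngp UMIs lay in 3 cells with 7090, 5271 and 3244 UMIs. The first had 537 Camp, 402 Ngp, 47 Ltf, 191 Lcn2 and 2787 S100a8 plus S100a9 UMIs. The second had 46 Camp, 63 Ngp and 250 Retnlg UMIs, and the third 41 Camp, 56 Ngp and 106 Retnlg UMIs. The 3 cells held 0, 0 and 1 UMIs of Il1b and 0 of Cxcl2, and 0 of the proliferation genes Mki67 and Top2a. They were picked after their counts were seen.

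Without those 3 cells the list's median was 0.35, with 3 of 9 measured genes higher and 1 lower. Of all 1416 genes measured without these cells, 132 were higher and 137 lower, with a median of -0.04. Lcn2, a siderophore-binding granule protein, had a ratio of 1.80 (1.39 to 2.36) with them and of 0.976 (0.746 to 1.29) without them, and of 1.09 (0.827 to 1.45) under 4000 UMIs. Anxa1 was at 2.93 (1.79 to 5.10) and Wfdc21 at 1.61 (1.10 to 2.44) without them. Retnlg had ratios of 1.81 (1.58 to 2.09) with and 1.55 (1.35 to 1.79) without them, S100a8 1.46 and 1.23, and S100a9 1.17 and 1.03, and these 3 genes helped to choose the cells. Wfdc17, a protease inhibitor, was at 1697 and 2664 CPM (1.57, 1.33 to 1.87). Adam8, a metalloprotease released from granules, was lower, at 370 and 177 CPM (0.479, 0.319 to 0.735), and Lyz2, the member with the most UMIs, was at 0.823 (0.715 to 0.951). A list drawn up under the name of mature circulating neutrophils shares Camp, Ngp, Ltf, Lcn2, Mmp8, Cd177, Wfdc21 and Anxa1 with the granule genes. Transcripts of granule proteins mark young cells, so the list does not show how mature the cells were and largely repeats the granule genes. It had 5 of 9 higher and 0 lower, against 8.91% and 10.2% of all genes, with a median log2 ratio of 0.98. Without the 3 cells it had 2 of 7 higher and 0 lower, with a median of 0.62.

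Interleukin-1 beta and Cxcl2 transcripts were common in the neutrophils of both libraries, and Tnf was lower in the knockout. Beside the list counts below, 8.91% of all genes were higher and 10.2% lower. Il1b was found in 43 of 43 WT and 158 of 161 knockout neutrophils, at 7092 and 9350 CPM (1.32, 1.21 to 1.43), and at 1.57 (1.44 to 1.72) under 4000 UMIs. Of 13 cytokines and decoys 6 were measured: Tnf and Il1rn, the interleukin-1 receptor antagonist (370 and 177 CPM, 0.479, 0.319 to 0.735), were lower, and Osm, a cytokine of the interleukin-6 family (228 and 377 CPM, 1.65, 1.05 to 2.73), was higher. None of the 4 measured chemokines passed over all cells. Cxcl2, which draws neutrophils through Cxcr2, was at 8234 and 9393 CPM (1.14, 1.06 to 1.23), and Ccl3, a chemokine of macrophages and neutrophils, at 457 and 601 CPM (1.32, 0.9501 to 1.86), and at 1.57 (1.13 to 2.23) under 4000 UMIs. Among 5 measured chemoattractant receptors, Cxcr4, the bone marrow homing receptor, was at 446 and 216 CPM (0.484, 0.335 to 0.713) and Ptafr, the receptor for platelet-activating factor, at 402 and 177 CPM (0.441, 0.297 to 0.666). Ccrl2, a non-signalling chemerin receptor, was at 348 and 842 CPM (2.42, 1.69 to 3.58). In monocytes and macrophages, Ccrl2 had ratios of 3.02 and 1.51, Osm of 2.53 and 1.96, and Il1b of 2.16 and 1.95.

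Few genes of the sensing, survival and transcription lists passed 1.5-fold over all cells, where 8.91% of all genes were higher and 10.2% lower. Counts in lists this short say little beside those shares. Of 18 measured pattern and Fc receptors, Cd14, the lipopolysaccharide co-receptor (555 and 897 CPM, 1.62, 1.21 to 2.20), and Pglyrp1, a peptidoglycan-binding granule protein (479 and 807 CPM, 1.69, 1.23 to 2.36), were higher and Pilra lower (0.607, 0.408 to 0.927, but 0.752, 0.496 to 1.17, under 4000 UMIs). Tyrobp, the adaptor with the most UMIs of the list, was at 1.08 (0.966 to 1.21). In the TLR4 list, 1 of 2 measured genes was higher, Cd14 again, and Tlr4 itself had 3 and 9 UMIs. Cd14 had ratios of 3.03 in monocytes and 1.66 in macrophages. Of 7 measured survival genes, Bcl2a1b was lower (348 and 153 CPM, 0.439, 0.287 to 0.687) and Mcl1, which keeps neutrophils alive, was at 1371 and 1956 CPM (1.43, 1.18 to 1.73). The Bcl2a1 genes are near-identical copies, so single ones are uncertain. Of 13 measured transcription factors, Klf2 (1.56, 1.09 to 2.30) and Cebpd (1.80, 1.08 to 3.23) were higher and Runx1 lower (0.485, 0.272 to 0.905). Runx1 had 10 of 17 WT UMIs in 1 cell and a ratio of 0.695 (0.261 to 2.15) under 4000 UMIs. Over all cells 5 of 13 transcription factors had a log2 ratio above 0, with a median of -0.02. Under 4000 UMIs 12 of 13 did, with a median of 0.33 against -0.12 over all genes. There 2 were at least 1.5-fold higher, against 6.01% of all genes. Ier3 was higher (1.96, 1.34 to 2.97) and Sod2 lower (0.534, 0.316 to 0.938) among 8 measured NF-kB feedback genes, and Jun (0.663, 0.466 to 0.962) and Nr4a1 were lower among 12 immediate early genes.

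Several lists showed few or no genes past 1.5-fold, where 8.91% of all genes were higher and 10.2% lower. In lists this short, such counts do not set the genes apart from all genes. None of the 7 measured subunits of the NADPH oxidase, which makes the oxidative burst, passed, and Cyba was at 0.960 (0.789 to 1.18). Among adhesion genes, Itgam, the alpha chain of Mac-1, was lower (305 and 192 CPM, 0.629, 0.409 to 0.997), 1 of 7 measured, but did not pass under 4000 UMIs (0.747, 0.456 to 1.27). None of 3 leukotriene and prostaglandin genes and none of 9 MHC class I genes passed over all cells. Under 4000 UMIs, where 6.01% of all genes were higher, 2 of 8 MHC class I genes were. They were B2m, the light chain (1.62, 1.25 to 2.14, against 1.18 over all cells), and Psmb8, an immunoproteasome subunit (2.55, 1.03 to 8.18, against 1.91). Of 3 measured LXR and cholesterol efflux genes, Abcg1, a sterol exporter, was lower (152 and 71.3 CPM, 0.468, 0.246 to 0.942), but at 0.691 (0.338 to 1.52) under 4000 UMIs, and no cholesterol synthesis gene reached 100 CPM. Of the NAD list, Nadk alone was measured (207 and 114 CPM, 0.552, 0.323 to 0.984), and it did not pass under 4000 UMIs (0.563, 0.311 to 1.06). Of 3 measured angiogenic factors only Osm passed, and Vegfa had 5 and 20 UMIs. Among 9 measured genes of tissue-activated and aged neutrophils, Cxcr4 and Tnf were lower and Hilpda higher, and Siglecf, a marker of tumour-type neutrophils, had 3 and 14 UMIs. Bnip3l (0.484, 0.298 to 0.811) was the 1 of 12 measured glycolysis and hypoxia genes past 1.5-fold, Gapdh being at 1.32 (1.08 to 1.62).

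Some lists had other medians under 4000 UMIs. Of all genes, 8.91% were higher and 10.2% lower over all neutrophils, and 6.01% and 11.2% under 4000 UMIs. The medians over all genes were -0.06 and -0.12. The mitochondrially encoded genes had a median log2 ratio of 0.21 over all neutrophils, with 1 of 12 higher and 2 lower, but -0.67 under 4000 UMIs, with 0 of 11 higher and 6 lower. The 79 ribosomal protein genes had medians of 0.02 and -0.55, with 33 lower under 4000 UMIs. MHC class II had -0.18 and -0.98, and heat shock genes 0.05 and -0.84. Cell cycle genes had 3 of 6 higher over all cells (H2az1, Stmn1 and Tubb5), and 0 of 3 under 4000 UMIs, where the median was 0.11 against 0.52. In the cytoskeleton list 1 of 17 was higher and 1 lower: Tmsb10 was at 1.55 (1.32 to 1.82), but at 0.590 (0.398 to 0.891) under 4000 UMIs, and Sorl1 at 0.609 (0.444 to 0.848), and at 0.685 (0.489 to 0.973) under 4000 UMIs, short of 1.5-fold. All 4 haemoglobin genes of the red cell list were lower: 2 WT cells held 1240 of the 1271 WT haemoglobin UMIs and the knockout neutrophils held 16, while other kept barcodes were at 627 and 302 CPM.

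**Figure D5:**
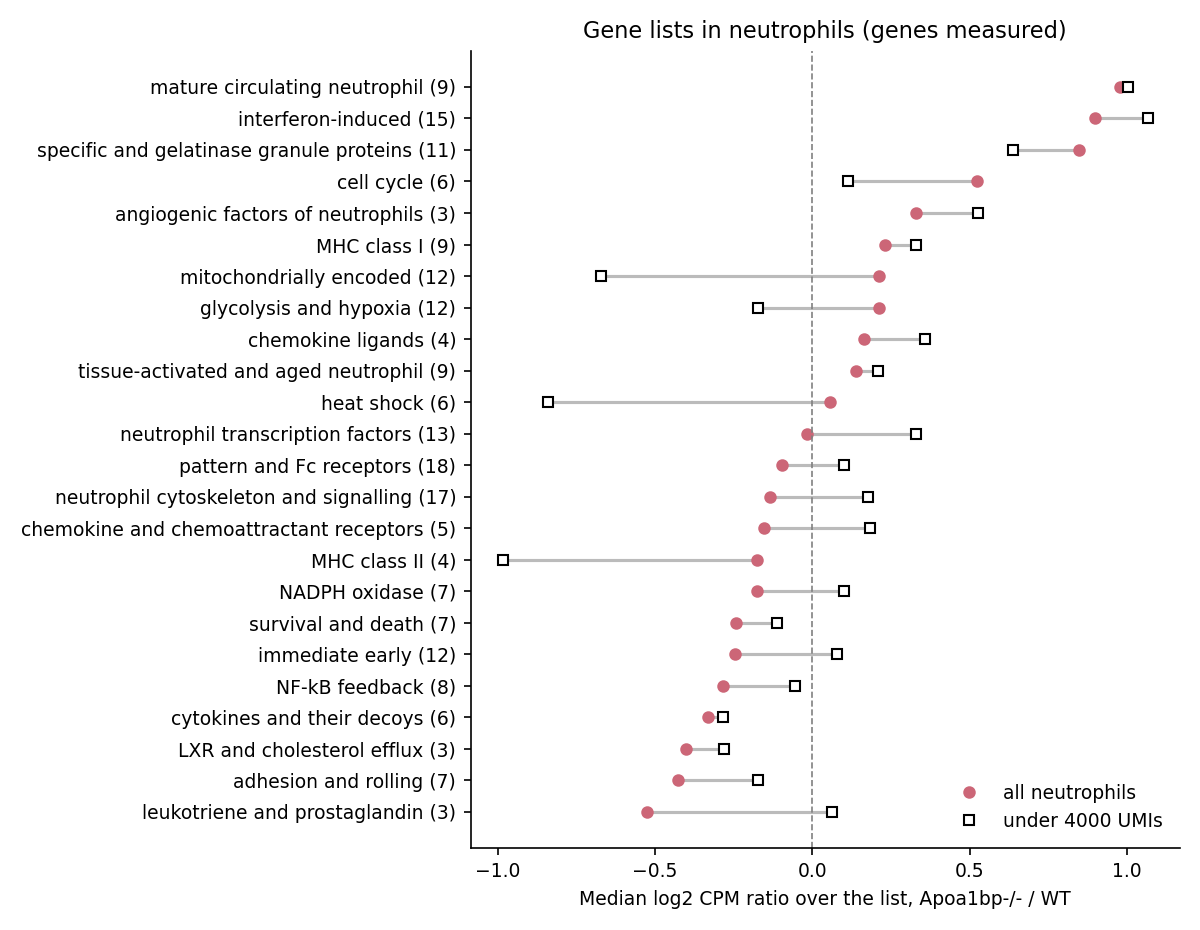
Median log2 CPM ratio, Apoa1bp-/- over WT (x axis), of each gene list with at least 3 measured genes (number in brackets), over all neutrophils (red circles) and those under 4000 UMIs (open squares). The interferon-induced list stands at 0.90 and 1.07, and mitochondrially encoded genes at 0.21 and -0.67.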

How the data were processed

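Single-cell libraries of 1 WT and 1 Apoa1bp-/- sample were read as deposited UMI counts per gene and barcode. The counts come from Cell Ranger 2.1.1 per the submitters' processing notes and cellranger 5.0.0 per the file headers, and the genome build and the treatment of reads that match several genes are not given in these sources. No replicate exists within a genotype, so nothing was tested. The libraries held 14035 WT and 9392 knockout barcodes with 80954991 and 80444279 UMIs. Barcodes with under 200 genes (49 and 31) or over 10% mitochondrial UMIs (156 and 211) were left out.

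Neutrophils were taken by the rule in the report, and the other classes by fixed markers. The members and the gene lists were chosen with earlier results of these data known. UMIs were summed over the neutrophils of a library and given as CPM. Ratios have exact conditional binomial intervals and shares have Clopper-Pearson intervals, at 95%. A gene was called higher or lower if its mean was at least 100 CPM, its ratio was at least 1.5-fold from 1 and its interval left out 1. Log2 ratios used a prior count of 0.5, and the limit for 0 UMIs was 3. Shares at 500 UMIs are expected values over thinning.

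Named genes were those of the rule, the 12 higher and 12 lower called genes with the bound farthest from 1 (without ribosomal, mitochondrial, haemoglobin, sex-linked and clone-named genes and those at 5 times the level in another class), the leading genes of each list, the 20 most particular genes, and Naxe and Naxd. Doublets were kept. Scrublet in scanpy 1.11.5 called 12.0% of WT and 5.72% of knockout barcodes, with 2 and 11 of the neutrophils. Python 3.11.15, scipy 1.17.1 and pandas 2.3.3 were used, and the calculations were checked on simulated data. Alternatives changed the member rule, filters, scaling, minimum level and the cells included.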

Additional observations from a re-analysis of the deposited data

How the results depend on the processing

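The ratio of neutrophil shares kept its direction in all 13 alternatives, from 4.61 to 6.99. Higher genes, 126 in the report, numbered 64 as a mean over barcodes, 41 when cells were thinned to 500 UMIs, 80 at 200 CPM, 230 with no minimum, 76 without cells with fibroblast or muscle UMIs and 83 under 4000 UMIs. Lower genes, 144 in the report, numbered 79 when thinned, 238 at 50 CPM, 74 at 200 CPM and 430 with no minimum. The interferon list's median log2 ratio was between 0.21 (no C1q UMI) and 1.28 over 23 alternatives. The NAD list turned to 0.084 at 50 CPM and 0.71 with no minimum. Monocyte markers turned to 0.025 as a mean over barcodes and to 0.12 without cells with fibroblast or muscle UMIs, and macrophage markers to 0.017 with no C1q UMI. Muscle fibre markers, at 0.86, turned to -0.59 with at least 50 S100 UMIs, -0.30 with at least 3 of 5 further markers, -2.66 with no C1q UMI, -0.35 as a mean over barcodes, -0.54 when thinned, -0.93 without cells with fibroblast or muscle UMIs and -0.53 under 4000 UMIs. Among named genes, the log2 ratio of Ngp turned to -1.08 without the 3 cells rich in Camp, that of Crip1 to 0.21 with no C1q UMI, that of Mt2 to 3.76 with no C1q UMI, 2.26 when thinned and 0.17 without the deepest cell of each library, and that of Gpx3 to 3.17 with no C1q UMI. The cause was not tested in any of these. The limit of 4000 UMIs and the settings on Camp and haemoglobin were chosen after seeing the data. With 43 WT neutrophils, a gene such as Oas3 at 97.9 CPM rests on 9 WT UMIs. No paired analysis was possible because each genotype has 1 library.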
